A study of Mus musculus with 60 samples.

Results

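The 10 genes described here belong to the unfolded protein response, the program by which a cell answers misfolded protein in its endoplasmic reticulum (ER). They are Ern1, Atf6, Xbp1, Hspa5, Hsp90b1, Dnajb9, Sdf2l1, Pdia4, Creld2 and Herpud1. They were chosen by name as 10 of the 21115 deposited features, each feature standing for 1 Entrez gene, and each symbol matched exactly 1 feature. All 10 were kept, since no filter on low values was applied, and their mean log2 levels over all arrays lay above those of 81.4% to 99.2% of all features. Affymetrix expression arrays were used to read liver RNA from 60 mice, 1 mouse per array. All animals were labelled as male C57BL/6J mice aged 12 to 15 weeks, housed singly, and carried 1 of 3 transgenic forms of AHR, the aryl hydrocarbon receptor to which dioxins bind, named INS, DEL and rWT. Mice received 1 oral dose of the dioxin TCDD (2,3,7,8-tetrachlorodibenzo-p-dioxin), given in corn oil, or corn oil alone, and livers were taken after 96 h. The numbers of mice on corn oil and on 125, 250, 500 and 1000 µg/kg TCDD were 5, 4, 4, 4 and 5 in INS, 5, 4, 4, 4 and 4 in DEL, and 5, 3, 3, 4 and 2 in rWT. The sources used here do not give the difference between the receptor forms or the promoter that drives them. The question for these genes is whether TCDD moved the ER stress program in the liver of each line.

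Misfolded protein in the ER draws the chaperone BiP, the product of Hspa5, away from 3 membrane sensors, IRE1 (gene Ern1), ATF6 and PERK (gene Eif2ak3). IRE1 splices Xbp1 RNA into the form that encodes an active transcription factor, ATF6 is cut in the Golgi to release one, and PERK slows translation and favours ATF4. The liver secretes large amounts of plasma protein and depends on this folding machinery. The arrays read the total RNA of each gene, so Xbp1 splicing, ATF6 cleavage and PERK phosphorylation were not measured.

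The promoters of 6 members are shown because they carry, or lack, the elements through which the ER stress factors are known to act, and because the genes that moved together in these livers can be read against them. RefSeq entries (GRCm38.p6) covering 250 bases before to 50 after the transcription start were found for 9 of the 10 genes, and none was listed for Atf6. The 250 bases before the start are printed 5′ to 3′ on the strand of the gene. In the first 3, capitals mark the boxes of the ER stress element, CCAAT and CCACG 9 bases apart, in either orientation, and in Hspa5 also the TGACGTG core of the UPR element.
Hspa5, chr2:34771840-34772089, plus strand: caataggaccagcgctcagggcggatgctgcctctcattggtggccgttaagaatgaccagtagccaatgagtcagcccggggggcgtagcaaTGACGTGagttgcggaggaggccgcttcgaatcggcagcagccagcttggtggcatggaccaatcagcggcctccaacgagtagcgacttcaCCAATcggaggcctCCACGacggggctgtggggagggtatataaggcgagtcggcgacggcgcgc
Hsp90b1, chr10:86705445-86705694, minus strand: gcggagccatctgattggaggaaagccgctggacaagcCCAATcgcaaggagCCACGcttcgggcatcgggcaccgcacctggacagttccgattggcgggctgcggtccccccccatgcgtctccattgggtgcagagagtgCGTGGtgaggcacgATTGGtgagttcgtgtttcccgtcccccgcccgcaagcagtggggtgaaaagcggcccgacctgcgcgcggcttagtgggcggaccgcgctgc
Creld2, chr15:88819396-88819645, plus strand: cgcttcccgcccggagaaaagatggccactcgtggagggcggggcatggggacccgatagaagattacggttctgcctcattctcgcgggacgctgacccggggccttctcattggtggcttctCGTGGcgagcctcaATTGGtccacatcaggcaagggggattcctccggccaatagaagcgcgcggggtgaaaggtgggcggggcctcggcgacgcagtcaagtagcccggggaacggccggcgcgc
In Herpud1, capitals mark the second form of the ER stress element, ATTGG and CCACG 1 base apart.
Herpud1, chr8:94386179-94386428, plus strand: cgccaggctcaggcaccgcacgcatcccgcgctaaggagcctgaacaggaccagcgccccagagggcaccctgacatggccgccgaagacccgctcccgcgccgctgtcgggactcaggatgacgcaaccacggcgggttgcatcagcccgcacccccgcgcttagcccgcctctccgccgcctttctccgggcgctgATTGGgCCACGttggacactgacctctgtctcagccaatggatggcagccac
In Ern1, capitals mark CACGC, the complement of GCGTG, which is the core that AHR and its partner ARNT bind.
Ern1, chr11:106487797-106488046, minus strand: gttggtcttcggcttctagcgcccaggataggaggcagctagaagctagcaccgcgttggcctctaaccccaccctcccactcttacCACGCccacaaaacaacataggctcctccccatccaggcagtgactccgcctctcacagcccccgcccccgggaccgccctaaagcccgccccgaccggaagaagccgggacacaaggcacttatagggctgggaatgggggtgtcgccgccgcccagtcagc
The Pdia4 promoter held none of the 4 motifs on either strand and is shown as the contrast to its neighbours in expression.
Pdia4, chr6:47813513-47813762, minus strand: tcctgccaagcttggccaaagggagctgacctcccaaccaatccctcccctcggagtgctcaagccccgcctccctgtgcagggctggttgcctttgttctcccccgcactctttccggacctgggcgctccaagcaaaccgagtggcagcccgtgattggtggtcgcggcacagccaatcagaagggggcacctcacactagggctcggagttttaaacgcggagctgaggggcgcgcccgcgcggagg

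In the 300-base windows the ER stress element occurred once in Hspa5, from -65 to -47 of the start, once in Creld2, from -126 to -108, and at 2 places in Hsp90b1, from -212 to -194 and from -107 to -89. It was present in 0.119% of the 32851 promoters in the table. The second form in Herpud1 lay from -52 to -42, and 0.0365% of all promoters held it. The UPR element core of Hspa5 lay from -157 to -151, against 2.01% of all promoters. The AHR core occurred in 5 of the 9 windows, those of Hspa5, Hsp90b1, Sdf2l1, Herpud1 and Ern1, against 32.4% of all promoters, and in Hsp90b1 it overlapped both ER stress elements. A match describes these letters only.

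Some facts of the whole series touch the values below. TCDD acted in every line: Cyp1a1, the standard AHR target, was higher by 4.85 ± 0.18 (SE) log2 units in INS, 4.80 ± 0.18 in DEL and 6.19 ± 0.19 in rWT. On 4 rWT arrays labelled male, corn oil replicates 3, 4 and 5 and TCDD 500 replicate 4, Xist (the RNA of the inactive X chromosome) read 10.7 to 11.4, against 2.41 to 3.44 on the other 56 arrays, and the average effect of each member in rWT is therefore given with and without these 4. Array medians followed the line, at 5.22 to 5.38 in INS, 5.81 to 6.25 in DEL and 5.65 to 6.01 in rWT, so no level is compared between lines. The summed signal of 8 hepatocyte markers lay within 15.9 to 16.2 log2 units on all arrays, a sum in which the most abundant genes weigh most. Within that list the secreted proteins Apoa1, Apoh and Fgb were called lower by 0.31, 0.55 and 0.28 in DEL and by 0.36, 0.72 and 0.46 in rWT, Ttr was lower in DEL (-0.12), and Trf was higher by 0.13 in both. In DEL and rWT, markers of macrophages (10 of 10 and 8 of 10 measured genes), neutrophils (7 of 7 in both) and stellate cells (7 of 8 and 6 of 8) were higher with TCDD, and none of these was called in INS. The other 2 macrophage markers in rWT were the Kupffer cell gene Clec4f, called lower (-0.47, adjusted p = 0.0179, and -0.03 without the 4 arrays), and Cd5l, at -0.38 (adjusted p = 0.0800). In bulk liver, fewer cells of a type and less RNA per cell cannot be told apart.

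None of the 10 genes was called higher with TCDD in any line, where 0.431% of all features in INS, 16.7% in DEL and 20.3% in rWT were. Effects below are log2 differences between the average of the 4 TCDD dose groups and corn oil of the same line, with SE, from 1 limma fit over all arrays, and a gene was called at an adjusted p under 0.05 (Benjamini-Hochberg over 21115 features). In INS, 0 of the 10 were called, where 0.568% of all features were, and none had an unadjusted p under 0.05. In DEL, 1 of 10 was called lower, Ern1, where 17.6% of all features were called lower and 34.3% in either direction. In rWT, 3 of 10 were called lower, Ern1, Hsp90b1 and Pdia4, where 20.4% of all features were lower and 40.7% were called in either direction. Without the 4 high-Xist arrays, Ern1 alone was called in rWT, where 19.1% of all features were lower and 36.1% were called. The share of members called was 0%, 10% and 30% in INS, DEL and rWT. With 10 genes each call weighs 10%, so these shares are not read as a difference from all features. The median effect of the 10 was 0.03 in INS, -0.11 in DEL and -0.10 in rWT, beside -0.01, -0.05 and -0.07 over all features. Centring each array on its median moved the median of all features to -0.31 in DEL and -0.29 in rWT, and 6 and 5 members were then called lower, where 65.5% and 65.0% of all features were called.

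**Figure D1:**
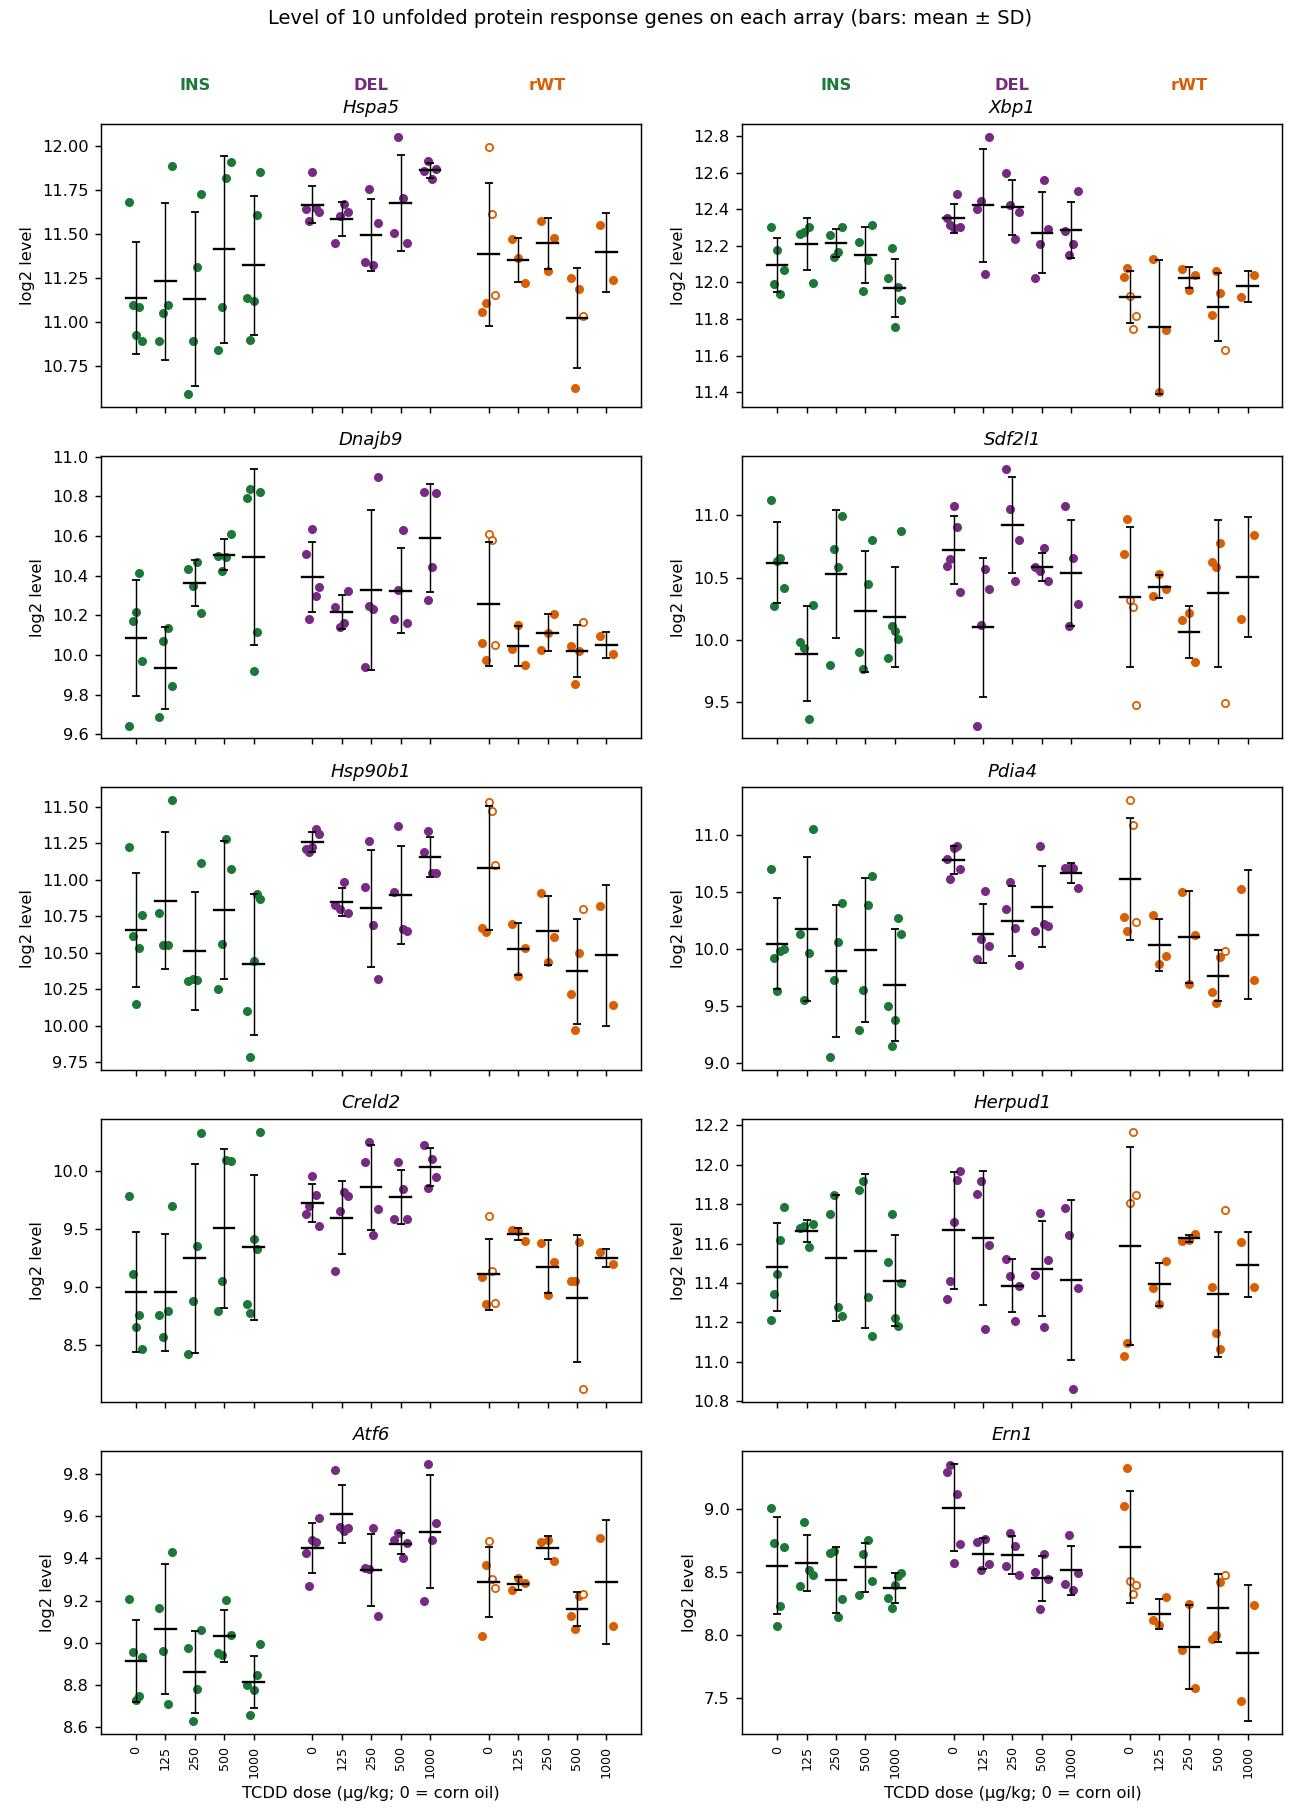
Log2 level of each of the 10 genes on each of the 60 arrays, by line and TCDD dose in µg/kg (0 is corn oil). Points are arrays, black bars group means with SD, and open points the 4 rWT arrays with high Xist. The rWT TCDD points of Ern1 lie at 7.47 to 8.47, against 8.33 to 9.32 on corn oil. TCDD and corn oil points of all 10 genes overlap in every line.

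The intervals bound how large a rise could have been missed. Over the 10 genes the highest upper limit of a 95% interval was 0.76 in INS, 0.55 in DEL and 0.56 in rWT, each time for Creld2, which correspond to rises of 1.69-fold, 1.46-fold and 1.48-fold. Single doses were bounded less tightly. There the upper limit for Creld2 was 1.15 in INS at 500 µg/kg, 0.907 in DEL at 1000 µg/kg and 0.997 in rWT at 125 µg/kg. The rWT limit also does not cover the fit without the 4 high-Xist arrays, where the Herpud1 estimate was 0.37.

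Of the sensors, Ern1 encodes IRE1, the kinase and endoribonuclease that splices Xbp1 RNA. Its RNA fell with TCDD in DEL and in rWT, by 0.45 ± 0.14 (limma adjusted p = 0.00975) and by 0.67 ± 0.15 (adjusted p = 0.000242). The DEL call ended when corn oil replicate 1 or 2 of DEL was left out, with an adjusted p of up to 0.0606. In INS the difference was -0.07 ± 0.14 (adjusted p = 1.0). The fall in rWT was larger without the 4 high-Xist arrays, at -1.16 (adjusted p = 4.22e-06).

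In DEL, Ern1 read 9.29, 9.34, 8.57, 9.12 and 8.72 on corn oil, 8.74, 8.51, 8.76 and 8.56 at 125 µg/kg, 8.55, 8.81, 8.70 and 8.47 at 250 µg/kg, 8.50, 8.21, 8.64 and 8.45 at 500 µg/kg, and 8.40, 8.79, 8.36 and 8.49 at 1000 µg/kg. Of the 16 DEL mice on TCDD, 10 lay below all 5 corn oil mice and none lay above them, although the lowest corn oil mice overlapped the treated range. In rWT, Ern1 read 9.02, 9.32, 8.42, 8.33 and 8.39 on corn oil, of which the last 3 are high-Xist arrays, then 8.12, 8.08 and 8.30 at 125 µg/kg, 7.88, 8.24 and 7.57 at 250 µg/kg, 7.96, 7.99, 8.42 and 8.47 at 500 µg/kg, and 7.47 and 8.24 at 1000 µg/kg. Of the 12 rWT mice on TCDD, 10 lay below all corn oil mice, and none lay above them. With the 4 high-Xist arrays set aside the groups did not overlap, and in that set of 2 corn oil and 11 TCDD arrays 17.7% of all features were lower without overlap. In INS, the 17 mice on TCDD read 8.14 to 8.89 with a median of 8.47, against 9.005, 8.73, 8.07, 8.23 and 8.70 on corn oil. No INS mouse on TCDD lay outside the corn oil range.

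At single doses 0 of 40 tests of members (10 genes at 4 doses) were called in INS, where 0.0805%, 0.142%, 0.232% and 1.02% of all features were called at 125, 250, 500 and 1000 µg/kg. In DEL 2 of 40 were called, where 17.2%, 22.5%, 27.5% and 27% of all features were, and in rWT 6 of 40, where 23.9%, 30.9%, 23.4% and 28.5% were. Ern1 was called lower in DEL at 500 µg/kg (-0.56) and 1000 µg/kg (-0.50), and in rWT at all 4 doses (-0.53, -0.80, -0.48 and -0.84 in order of dose). Of all features, 7.76%, 11%, 12.9% and 12.7% were lower at the DEL doses in order, and between 10% and 14.3% at the rWT doses. The fall did not grow detectably with dose: the slope of Ern1 per doubling of dose was -0.05 ± 0.06 in INS, -0.06 ± 0.06 in DEL and -0.06 ± 0.08 in rWT, with no adjusted p under 0.797.

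The lines differed in this effect where INS was set against rWT. INS minus rWT was 0.60 ± 0.20 for Ern1 (adjusted p = 0.0289), and 1.09 without the 4 high-Xist arrays (adjusted p = 0.000364). It was the only member called higher in this difference, where 8.45% of all features were called higher. INS minus DEL was 0.38 ± 0.20 (adjusted p = 0.224) with a 95% interval of -0.02 to 0.78, and DEL minus rWT was 0.21 ± 0.20 (adjusted p = 0.750). The Ern1 falls in DEL and rWT stood beside the rises of the macrophage, neutrophil and stellate markers given above, whose part in them was not tested.

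Atf6, the sensor that is itself a transcription factor, had effects of at most 0.04 in size in any line, with SE of 0.09, or 0.09 in rWT without the 4 high-Xist arrays (adjusted p = 0.632). It read 8.63 to 9.43 with TCDD, against 8.73 to 9.21 on corn oil in INS, 9.13 to 9.85 against 9.27 to 9.59 in DEL, and 9.06 to 9.50 against 9.03 to 9.48 in rWT. Its 95% intervals stayed between -0.18 and 0.22 in all 3 lines. Under median centring, where the median of all features was itself -0.31 in DEL, the DEL value of Atf6 was -0.22 (adjusted p = 0.0484).

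Xbp1, whose RNA is the splicing target of IRE1, was as flat. The effects were 0.04 ± 0.09 in INS, -0.0020 ± 0.09 in DEL and -0.01 ± 0.10 in rWT, or -0.13 in rWT without the 4 arrays (adjusted p = 0.472). INS mice on TCDD read 11.8 to 12.3, against 11.9 to 12.3 on corn oil. DEL mice on TCDD read 12.0 to 12.8, against 12.3 to 12.5 on corn oil, and rWT mice on TCDD read 11.4 to 12.1, against 11.7 to 12.1 on corn oil. Treated arrays thus lay on both sides of the corn oil range in each line. The spread of Xbp1 and Atf6 between mice of 1 group was small, with pooled SD of 0.18 and 0.17, which were larger than those of 21.9% and 18.9% of all features.

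**Figure D2:**
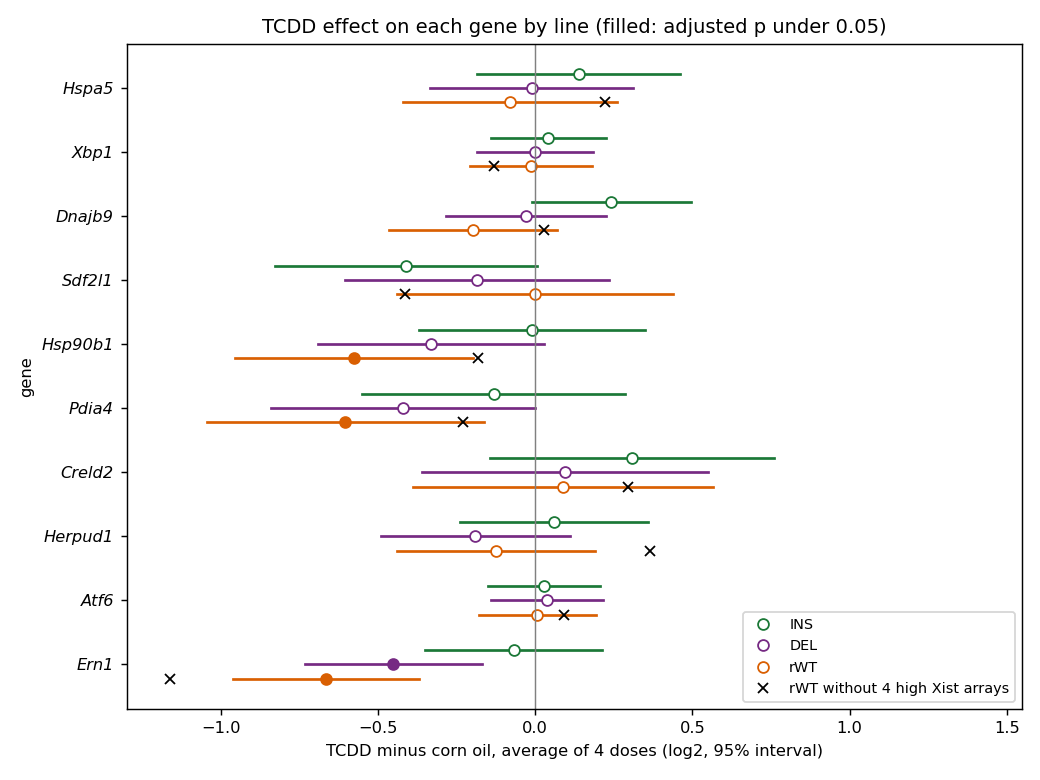
Effect of TCDD on each gene in each line as a log2 difference from corn oil averaged over 4 doses, with 95% intervals. Filled points are called by limma, and crosses give the rWT value without the 4 high-Xist arrays. The filled points are Ern1 in DEL and rWT and Hsp90b1 and Pdia4 in rWT, and the crosses of the last 2 genes lie nearer to 0, at -0.18 and -0.23.

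Hspa5 encodes BiP, the Hsp70 chaperone of the ER lumen and the usual readout of ER stress. Its effect was 0.14 ± 0.16 in INS, -0.01 ± 0.16 in DEL and -0.08 ± 0.17 in rWT (adjusted p = 1.0, 0.965 and 0.724). Without the 4 high-Xist arrays the rWT value had the opposite sign, 0.22 (adjusted p = 0.480). INS mice on TCDD read 10.6 to 11.9 with a median of 11.1, against 11.68, 11.10, 10.93, 11.09 and 10.89 on corn oil. DEL mice on TCDD read 11.3 to 12.1 with a median of 11.6, against 11.64, 11.58, 11.85, 11.65 and 11.62 on corn oil. In rWT, mice on TCDD read 10.6 to 11.6 with a median of 11.3, against 11.06, 11.11, 11.99, 11.61 and 11.16 on corn oil. The ranges overlapped in all 3 lines. All 4 DEL mice at 1000 µg/kg lay at 11.81 to 11.91, close to the highest corn oil mouse, and that dose was not called.

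Hsp90b1 encodes GRP94, the Hsp90 chaperone of the ER, and Pdia4 encodes ERp72, a protein disulfide isomerase. Both were called lower in rWT, Hsp90b1 by 0.58 ± 0.19 (adjusted p = 0.0119) and Pdia4 by 0.60 ± 0.22 (adjusted p = 0.0234). Without the 4 high-Xist arrays the values were -0.18 (adjusted p = 0.604) and -0.23 (adjusted p = 0.572), and neither was called. The call also ended for both genes when corn oil replicate 3 or 4 of rWT was left out.

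In rWT, Hsp90b1 read 9.97 to 10.91 with a median of 10.5 on the 12 TCDD arrays, against 10.67, 10.64, 11.53, 11.47 and 11.10 on corn oil. Pdia4 read 9.53 to 10.52 with a median of 9.94 with TCDD, against 10.28, 10.16, 11.30, 11.08 and 10.24 on corn oil. For Hsp90b1 the 3 high-Xist corn oil arrays lay above the other 2 corn oil arrays, and for Pdia4 replicates 3 and 4 did. Pancreatic acinar markers moved in the same comparison: 7 of 9 were called lower and 1 higher in rWT, and 3 lower and 1 higher without the 4 arrays. Their summed log2 level was 12.4 on corn oil replicate 5 and 7.47 to 9.18 on the other 4 corn oil arrays of rWT, against 8.54 to 10.4 with TCDD. The marker called higher was Ctrb1, which rose with TCDD by 3.49 ± 0.72 in INS, 5.09 ± 0.72 in DEL and 3.11 ± 0.76 in rWT (5.58 without the 4 arrays). Since Ctrb1 is part of the sum, the sums with TCDD and on corn oil cannot be compared as levels of pancreatic RNA. Corn oil replicates 1 to 4 of rWT read 7.52, 7.47, 9.18 and 7.52 for this sum, in that order. The part of pancreatic RNA in the Hsp90b1 and Pdia4 values was not tested. Of 8 markers of plasma cells and B cells, 4 were lower in rWT, or 2 without the 4 arrays, and their part was not tested either.

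In DEL the same genes sat lower without passing the test, Hsp90b1 at -0.33 ± 0.18 (adjusted p = 0.153) and Pdia4 at -0.42 ± 0.21 (adjusted p = 0.117). Hsp90b1 read 10.3 to 11.4 with TCDD, against 11.21, 11.19, 11.22, 11.35 and 11.31 on corn oil, and Pdia4 read 9.86 to 10.9 with TCDD, against 10.78, 10.61, 10.88, 10.90 and 10.70 on corn oil. Of the 16 DEL mice on TCDD, 13 lay below all corn oil mice for Hsp90b1 and 12 for Pdia4. The corn oil mice of DEL lay close together for both genes. With DEL fitted alone and its own estimate of the spread, the adjusted p-values were 0.0378 and 0.0101, and both genes passed, where 34.5% of all features were called. In INS the values were -0.01 ± 0.18 and -0.13 ± 0.21. At 500 µg/kg in rWT, where 10.3% of all features were lower, Hsp90b1 was at -0.71 and Pdia4 at -0.85, both called, and at -0.42 and -0.53 without the 4 arrays, neither called.

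Creld2, an ER protein with disulfide isomerase-like activity that is induced by ER stress, had the widest intervals. Its effects were 0.31 ± 0.23 in INS, 0.09 ± 0.23 in DEL and 0.09 ± 0.24 in rWT, none called, and the rWT value was 0.29 without the 4 arrays (adjusted p = 0.509). INS mice on TCDD read 8.42 to 10.3, against 9.79, 9.11, 8.66, 8.76 and 8.46 on corn oil, so both groups covered more than 1 log2 unit. Its pooled SD within groups, 0.46, exceeded that of 90.9% of all features.

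The co-chaperones behaved unlike each other. Dnajb9 encodes ERdj4, a J-domain partner of BiP. In INS its effect was 0.24 ± 0.13 (adjusted p = 0.702), and its group means were 10.1 on corn oil and 9.93, 10.4, 10.5 and 10.5 at 125, 250, 500 and 1000 µg/kg. The slope was 0.18 ± 0.05 per doubling of dose, with an unadjusted p of 0.00111 and an adjusted p of 0.277, so it was not called, and 0.0426% of all features were. All 8 INS mice at 250 and 500 µg/kg read 10.21 to 10.61, whereas the 5 mice at 1000 µg/kg read 10.79, 10.83, 9.92, 10.11 and 10.82. The Dnajb9 effects in DEL and rWT were -0.03 ± 0.13 and -0.20 ± 0.13, and the rWT value was 0.03 without the 4 arrays (adjusted p = 0.922). INS minus rWT was 0.44 ± 0.18 (adjusted p = 0.0814).

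Sdf2l1, a partner of BiP in the ER lumen, had the opposite sign in INS, at -0.41 ± 0.21 (adjusted p = 0.673). It read 9.36 to 10.99 on TCDD, against 11.12, 10.27, 10.63, 10.66 and 10.41 on corn oil, and 10 of the 17 treated INS mice lay below all corn oil mice. The effects were -0.19 ± 0.21 in DEL and -0.0012 ± 0.22 in rWT, and the rWT value was -0.41 (adjusted p = 0.246) without the 4 high-Xist arrays. None of these passed the test.

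Herpud1, a membrane protein of ER-associated degradation, was not called in any line, at 0.06 ± 0.15 in INS, -0.19 ± 0.15 in DEL and -0.12 ± 0.16 in rWT. In rWT it read 11.1 to 11.8 with TCDD, against 11.03, 11.10, 11.81, 12.17 and 11.85 on corn oil. The 3 high-Xist corn oil arrays lay above the highest treated array, and of the other 2, replicate 1 lay below the lowest treated array and replicate 2 near it. Without the 4 arrays its rWT value had the opposite sign, 0.37 (adjusted p = 0.139).

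In each line the TCDD and corn oil arrays overlapped for all 10 members, where 0.208% of all features in INS, 10.9% in DEL and 6.73% in rWT had none overlapping. No member had a dose slope that was called, where 0.0426%, 0% and 0.0284% of all features were, in INS, DEL and rWT in that order. The largest slope after Dnajb9 in INS was that of Pdia4 in DEL, 0.17 ± 0.09 per doubling (adjusted p = 0.504). In differences between lines 0 of 10 members were called for INS minus DEL, where 14.1% of all features were, 1 of 10 for INS minus rWT, where 20.9% were, and 0 of 10 for DEL minus rWT, where 1.11% were.

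While TCDD moved few of the 10, some of them varied together from mouse to mouse. The deviation of each array from its group mean was taken for each gene, and Pearson's r computed over the 60 arrays as a description, since all points share their arrays. Hspa5 went with Pdia4 (r = 0.89), Creld2 (0.83) and Hsp90b1 (0.80), which ranked 2, 4 and 9 among 19167 named genes in likeness to Hspa5. The 6 pairs among these 4 genes had r of 0.64 to 0.89 with a median of 0.82, and the other 39 pairs of members had -0.45 to 0.68 with a median of -0.06. The 4 genes were grouped by their r with Hspa5 in these same deviations. Their higher values beside the other 39 pairs thus follow in part from that choice and are no test. Spearman's rho for the 3 pairs with Hspa5 was 0.83, 0.77 and 0.72, and without the 2 arrays farthest from the median of Hspa5 r was 0.86, 0.82 and 0.77. Of all genes, 4.02% had r above 0.5 with Hspa5. By line, the 6 pairs had 0.85 to 0.95 in INS, 0.51 to 0.85 in DEL and 0.095 to 0.90 in rWT. The 5 genes most like Hspa5 were Utp6, a factor of ribosome biogenesis (0.89), Pdia4, Saraf, a regulator of store-operated calcium entry (0.84), Creld2, and Dnajb11, the ER co-chaperone ERdj3 (0.83).

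The other members were less like Hspa5. Against Hspa5, r was -0.06 for Xbp1, 0.13 for Dnajb9, -0.17 for Herpud1, -0.12 for Ern1, 0.40 for Sdf2l1 and 0.47 for Atf6, the last 2 at ranks 1423 and 941 of 19167. Links to other genes of the group reached its own lowest pair, Hsp90b1 with Creld2 at 0.64: Sdf2l1 had r of 0.68 with Creld2 and Atf6 had 0.63 with Hsp90b1. Of the 4 genes, Hspa5, Hsp90b1 and Creld2 hold the ER stress element and Pdia4 holds none of the motifs searched. Herpud1 holds the second form, and so does Dnajb11, which had r of 0.83 with Hspa5. Among other genes of the pathway, Calr, Canx, Dnajc3, Ero1b, Pdia6, Derl3 and Syvn1 hold the ER stress element. None of these 7 was among the 10 genes most like Hspa5. The part of these elements in the shared variation was not tested. All 4 genes lay on the same side of their group means on 34 of the 60 arrays, of which 17 of 22 were in INS, 7 of 21 in DEL and 10 of 17 in rWT. This count, too, describes a group picked from the same values.

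**Figure D3:**
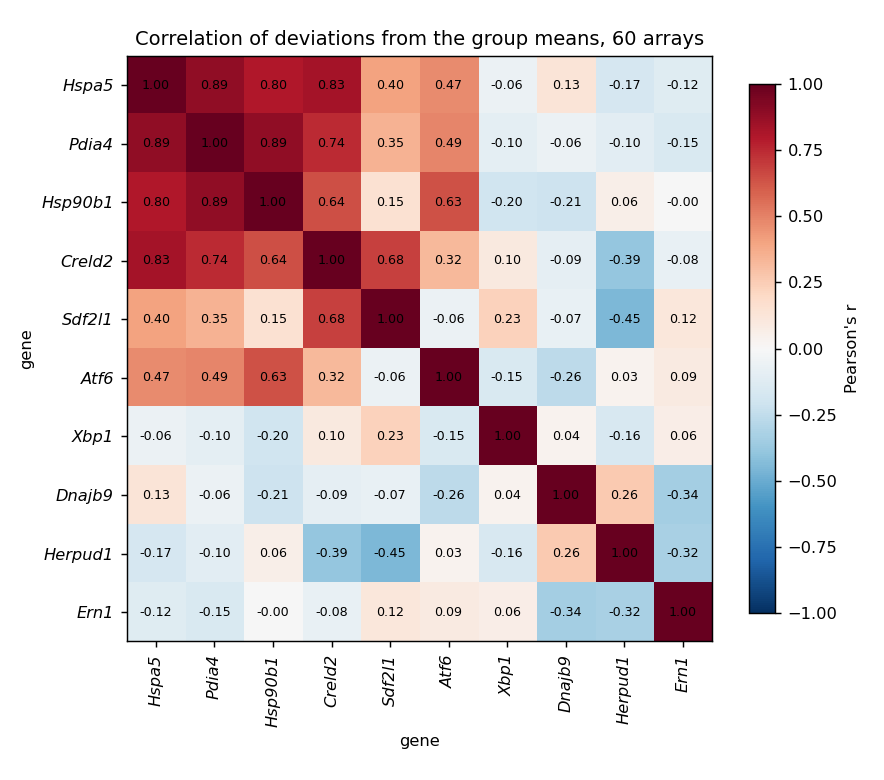
Pearson's r between members for deviations from the 15 group means over 60 arrays, with genes ordered to put the 4 that varied together first. The upper left block of Hspa5, Pdia4, Hsp90b1 and Creld2 holds 0.64 to 0.89, and Herpud1 and Ern1 have -0.17 and -0.12 with Hspa5.

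In INS the mouse-to-mouse spread of some members went with the replicate number in the labels. At the 4 TCDD doses, replicate 4 read 11.88, 11.73, 11.91 and 11.61 for Hspa5, and replicate 1 read 10.89, 10.59, 10.84 and 11.14, so the ranges of the 2 numbers did not overlap. Pdia4 read 10.27 to 11.05 on replicates numbered 4 and 9.05 to 10.13 on those numbered 1, and Creld2 9.33 to 10.34 and 8.42 to 8.85. Herpud1 ran the other way, at 11.13 to 11.70 on number 4 and 11.51 to 11.87 on number 1. On corn oil the order differed: replicate 1 was the highest for Hspa5 (11.68), Pdia4 (10.70), Hsp90b1 (11.23) and Creld2 (9.79). The replicate number took 42.5% of the within-group variance of Hspa5 in INS, beside a median of 24.2% over all features, and 85.4% of features had a lower share. For Pdia4, Hsp90b1 and Herpud1 the share was 46.3%, 42.8% and 41%, for Atf6, Creld2 and Ern1 31.1%, 30.1% and 24.7%, and for Sdf2l1, Xbp1 and Dnajb9 it was below that median, at 23.4%, 14.8% and 7.75%. The sources used here do not say what the number stands for, and these genes and numbers were singled out after their values were seen. With the number removed as well, the 6 pairs kept r of 0.72 to 0.86.

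**Figure D4:**
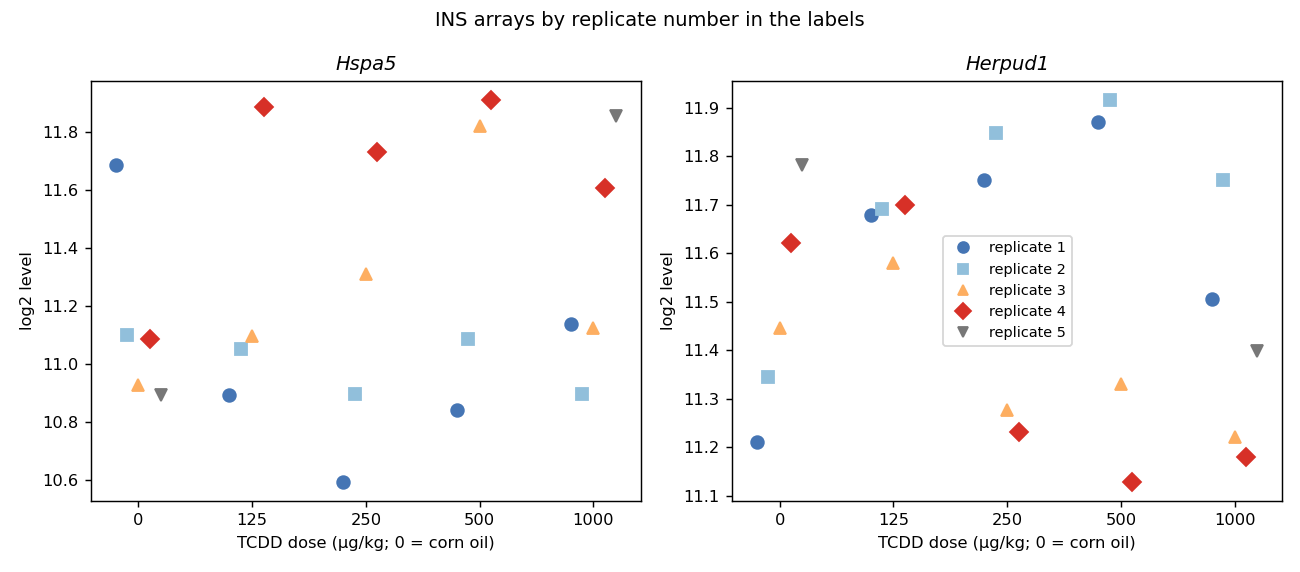
Log2 levels of Hspa5 and Herpud1 on the 22 INS arrays by TCDD dose in µg/kg (0 is corn oil), with symbol and colour showing the replicate number of the labels. Among treated mice, number 4 lies at 11.61 to 11.91 for Hspa5 and number 1 at 10.59 to 11.14, and for Herpud1 number 4 lies at 11.13 to 11.70 and number 1 at 11.51 to 11.87.

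The other genes of the pathway were read from 7 lists of 77 genes, 72 of them measured. In INS 1 of 72 was called higher and 0 lower. In DEL 19 were higher and 12 lower, and in rWT 27 were higher and 10 lower, or 25 and 5 without the 4 high-Xist arrays. Median effects over the 72 genes were 0.06, 0.07 and 0.18, beside the medians of all features given above. The shares of all features called higher were 0.431% in INS, 16.7% in DEL and 20.3% in rWT, and those called lower were 0.137%, 17.6% and 20.4%. Without the 4 high-Xist arrays the rWT shares were 16.9% higher and 19.1% lower. In the 6 INS lists with no call, the largest values were 0.53 for Fkbp11 and -0.19 for Sec63 among chaperones, -0.27 for Pdia6 and 0.26 for Txndc11 in disulfide bond formation, 0.27 for Syvn1 and 0.23 for Edem3 in degradation, 0.24 for Sec61a1 and 0.21 for Ssr1 in translocation, 0.23 for Creb3l2 and 0.21 for Mbtps2 among membrane sensors and proteases, and -0.46 for Scara3 and -0.24 for Col6a1 among decay targets.

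The PERK branch list holds the sensor, the factors that follow it and their targets. PERK is only the name of the list here: its phosphorylation was not measured, and its part in these values was not tested. Of its 12 measured genes, 1 was higher in INS, 8 were higher and 1 lower in DEL, and 8 were higher and 1 lower in rWT (6 and 0 without the 4 arrays). The median effect was 0.23 in INS, 0.67 in DEL and 0.61 in rWT. Atf3, a stress-induced transcription factor, was higher by 1.38 ± 0.32 in INS (adjusted p = 0.0201), by 3.14 ± 0.32 in DEL and by 2.20 ± 0.34 in rWT. Its DEL arrays did not overlap, at 8.95 to 10.2 with TCDD, against 5.83 to 6.67 on corn oil, and such a higher separation was seen for 5.88% of all features. In INS Atf3 read 5.70 to 8.38 with TCDD, against 5.56 to 7.19 on corn oil, and the call there ended when corn oil replicate 1, 2, 4 or 5 of INS was left out.

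Asns, the asparagine synthetase that ATF4 induces, rose by 3.45 ± 0.47 in rWT and by 1.52 ± 0.45 in DEL, and was at 0.54 ± 0.45 in INS (adjusted p = 0.957). Nupr1, a stress-induced nuclear protein, rose by 1.36 ± 0.21 in DEL and 1.35 ± 0.22 in rWT, and Trib3, a pseudokinase target of ATF4 and CHOP, rose by 1.02 ± 0.27 and 1.06 ± 0.29. Tested as differences between lines, the effect in INS was below that in DEL for Atf3 (-1.76 ± 0.45, adjusted p = 0.00463) and Nupr1 (-0.88 ± 0.30, adjusted p = 0.0387), and below that in rWT for Asns (-2.91 ± 0.65, adjusted p = 0.000693), Nupr1 (-0.87 ± 0.31, adjusted p = 0.0352) and Ppp1r15a (-0.52 ± 0.16, adjusted p = 0.0162). Atf3 was not called in INS minus rWT (-0.82 ± 0.46, adjusted p = 0.221), but was without the 4 high-Xist arrays (-1.39, adjusted p = 0.0403). Ppp1r15b went the other way, higher in INS minus DEL (0.48 ± 0.16, adjusted p = 0.0328) and in INS minus rWT (0.48 ± 0.16, adjusted p = 0.0291). Without the 4 arrays the latter was not called (0.27, adjusted p = 0.321). Atf4 RNA was not called in any line, and Ddit3, which encodes CHOP, was called in DEL alone (0.55 ± 0.15, adjusted p = 0.00379, but 0.33 and adjusted p = 0.0848 under quantile normalization), while its DEL minus rWT difference did not pass (0.44 ± 0.22, adjusted p = 0.421). Eif2ak3 itself was called in rWT alone (0.36 ± 0.13, adjusted p = 0.0223), and neither without the 4 arrays (adjusted p = 0.122) nor under quantile normalization (0.26, adjusted p = 0.107), with DEL minus rWT at -0.38 ± 0.18 (adjusted p = 0.378).

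The list counts here and below stand beside 16.7% of all features higher and 17.6% lower in DEL, and 20.3% and 20.4% in rWT. Among the 15 other ER chaperones and co-chaperones, 1 was higher and 4 lower in DEL, and 3 were higher and 1 lower in rWT. Dnajc10, which encodes the reductase ERdj5, rose by 0.94 ± 0.17 in DEL and 0.74 ± 0.18 in rWT (1.35 without the 4 arrays), and Fkbp2, an ER prolyl isomerase, fell by 0.70 ± 0.16 and 0.89 ± 0.17. Hyou1, the ER exchange factor and Hsp70-like chaperone GRP170, fell by 0.57 ± 0.22 in DEL (adjusted p = 0.0420). Sec63, the J-domain partner of BiP at the translocon, fell by 0.45 ± 0.12 in the same line. Of 10 genes of disulfide bond formation, 2 were higher and 4 lower in DEL and likewise in rWT (4 and 2 in rWT without the 4 arrays). The isomerase Pdia5 fell by 1.13 ± 0.15 and 1.25 ± 0.16, and the oxidase Ero1b by 1.02 ± 0.18 and 0.82 ± 0.19, in DEL and rWT in that order, with Pdia5 at -0.82 in rWT without the 4 arrays.

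In ER-associated degradation, 2 of 14 genes were higher and 2 lower in DEL, and 4 higher and 2 lower in rWT. Derl1 rose by 0.44 ± 0.08 in DEL and 0.77 ± 0.08 in rWT, and its paralog Derl2 fell by 0.60 ± 0.15 and 0.70 ± 0.16. Both encode derlins of the retrotranslocation complex. Of the 9 genes of translocation into the ER, 1 was higher in DEL and 4 in rWT, with Spcs1, a subunit of the signal peptidase, at 0.47 ± 0.16 and 0.72 ± 0.17. Among 7 genes of membrane sensors and their proteases, 3 were higher in DEL, and 4 were higher and 1 lower in rWT. Creb3l1, an ER membrane transcription factor known for its part in collagen secretion, rose by 1.92 ± 0.26 and 2.86 ± 0.27, beside the rise of stellate and matrix markers in the same lines, whose part in it was not tested. Mbtps2, the site-2 protease that cuts ATF6, rose by 0.43 ± 0.09 and 0.65 ± 0.09.

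The RNAs that IRE1 is known to cut in mouse cells gave mixed values. Of 5 measured, 2 were higher and 1 lower in both DEL and rWT, and none was called in INS. Pmp22 rose by 1.33 ± 0.21 in DEL and 1.51 ± 0.22 in rWT, Col6a1 by 0.80 ± 0.24 and 0.78 ± 0.25, and Scara3 fell by 0.48 ± 0.18 and 0.94 ± 0.19. Col6a1 in rWT was at 1.36 without the 4 arrays, and Scara3 in rWT was not called without the 4 arrays (-0.58, adjusted p = 0.0633). Col6a1 is also a collagen gene of matrix-producing cells. Most of the listed markers of these cells were higher in both lines, and their part in the Col6a1 values was not tested.

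**Figure D5:**
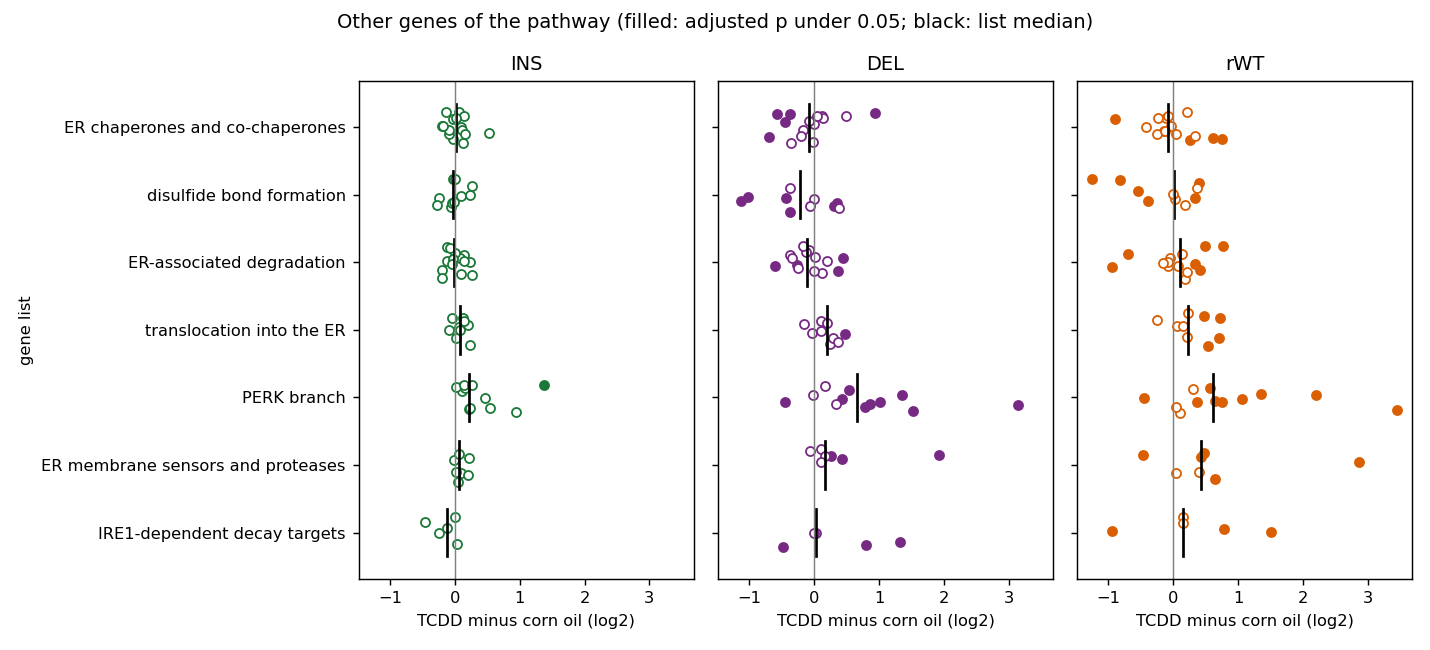
TCDD effect on 72 other genes of the pathway by list and line, as log2 differences from corn oil averaged over 4 doses. Filled points are called by limma and black bars are list medians. In INS the only filled point is Atf3, at 1.38, and in DEL and rWT the PERK branch list has medians of 0.67 and 0.61.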

How the data were processed

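The deposited values were used as they stand. They are log2 expression values, 1 per Entrez gene and array, which the authors made by RMA (affy 1.44.0, R 3.1.2), per the submitters' processing notes. Not given in the sources used here are the probe-set definition, the genome build and whether the lines were normalized together. Features were named through the platform's annotation and RefSeq (GRCm38.p6).

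A single limma fit (version 3.58.1, R 4.3.3, two-sided moderated tests) covered the 21115 features and 60 arrays, with 1 mean per line and dose (15 groups). Contrasts were the average TCDD effect, the effect at each dose, the slope on log2 dose among TCDD groups and the difference between lines in the average effect. The 4 dose contrasts of a line share its corn oil arrays. The fit was tested on simulated data. Alternatives were quantile normalization, median centring, a filter at a mean log2 of 5, a variance trend, each line alone, the replicate number as a block, the high-Xist arrays left out or as a covariate, and each array left out in turn.

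The members and the gene lists were chosen with earlier results of these data known. The text names all 10 members, up to 4 called genes per list and line by size, or values where none was called, and the 5 genes most like Hspa5. Cyp1a1, Xist, Eif2s3y, Eif2ak3, Atf4, Ddit3, Ppp1r15a and Ppp1r15b are named outside this rule, with their values known. Each mouse gave 1 array, and p-values measure the spread between mice. The number of arrays, 2 to 5 per group, limits the precision. No pair of arrays held identical values.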

Additional observations from a re-analysis of the deposited data

Results flagged for a closer look

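Within the groups of 4 or 5 mice, 11 of the 120 combinations of member and group held an array that stood apart from the rest by Dixon's criterion, where chance gives about 1 in 20. The array is named by its replicate number, and the range of the other arrays follows. For Hspa5, INS corn oil replicate 1 read 11.68, against 10.89 to 11.10, and DEL corn oil replicate 3 read 11.85, against 11.58 to 11.65. For Xbp1, INS replicate 4 at 125 µg/kg read 12.00, below 12.27 to 12.30, and DEL corn oil replicate 4 read 12.48, above 12.30 to 12.35. For Sdf2l1, INS replicate 5 at 1000 µg/kg read 10.88, above 9.86 to 10.11, and rWT replicate 4 at 500 µg/kg, a high-Xist array, read 9.50, below 10.59 to 10.78. Hsp90b1 read 11.12 in INS replicate 4 at 250 µg/kg, above 10.30 to 10.32. Pdia4 read 10.90 in DEL replicate 2 at 500 µg/kg, above 10.16 to 10.22, and 10.54 in DEL replicate 4 at 1000 µg/kg, just below 10.708 to 10.71. Herpud1 read 11.58 in INS replicate 3 at 125 µg/kg, below 11.68 to 11.70, and Atf6 read 9.82 in DEL replicate 1 at 125 µg/kg, above 9.53 to 9.55.

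The TCDD effect on Ern1 differed between lines by a test of the difference itself, with INS minus rWT at 0.60 ± 0.20 (limma adjusted p = 0.0289).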

How the results depend on the processing

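Effects of single members were recomputed under 8 other settings and with each of the 60 arrays left out in turn. Of 3090 recomputed effects, 3058 kept their direction or stayed uncalled, 16 lost the call, 15 gained it and 1 reversed. Most of the 3090 were not called to begin with, so staying uncalled makes up most of the 3058. The 16 losses fell on the few effects called at first. These were Ern1 in DEL, Ern1, Hsp90b1 and Pdia4 in rWT, and Ern1 in INS minus rWT. Median centring shifted the median of all features to -0.31 in DEL, -0.29 in rWT and -0.03 in INS, and called 13835 features in DEL (2186 higher, 11649 lower, against 3519 and 3726 as deposited) and 13735 in rWT (2782 and 10953, against 4284 and 4300). It raised the members called to 6 in DEL, 5 in rWT, 2 for INS minus DEL and 3 for INS minus rWT (30.4% and 30% of all features), and at single doses to 16 of 40 in DEL and 14 of 40 in rWT, against 2 and 6 (32.2% to 57.9% and 32.9% to 47.9% of all features). It lowered the PERK branch genes called higher in DEL to 5, and reversed Atf6 in DEL, at -0.22 against 0.04. The median of the members moved with that of all features, to -0.36 in DEL and -0.33 in rWT. With each line fitted alone, 3 members were called in DEL (34.5% of all features) and 5 at single doses (18.3% to 28.5%), and 0 PERK branch and 0 pathway genes were called in INS. Without the 4 high-Xist arrays, or with them as a covariate, 1 member was called in rWT.

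With 1 array left out, the members called were 0 to 0 in INS, 0 to 1 in DEL (0 without corn oil replicate 1 or 2, the adjusted p of Ern1 then reaching 0.0606) and 1 to 3 in rWT (1 without corn oil replicate 3 or 4). At single doses they were 0 to 2 in DEL (below 2 without corn oil replicate 1, 2 or 4, replicate 2 at 500 µg/kg, or replicate 1, 3 or 4 at 1000 µg/kg) and 3 to 6 in rWT (3 without replicate 1 or 2 at 500 µg/kg). For INS minus rWT they were 0 to 2, with 2 without INS replicate 3 at 1000 µg/kg. The Ern1 difference kept its call in 34 of 39 such fits and lost it without INS corn oil replicate 3 or 4, rWT corn oil replicate 1 or 2, or rWT replicate 1 at 1000 µg/kg. In INS, PERK branch and pathway genes called were 0 to 1, with 0 without corn oil replicate 1, 2, 4 or 5.

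The replicate numbers of the labels were not taken to pair the mice, since not every same-numbered pair correlated above 0.1. The correlations were those of deviations from the group means over all features, not of the levels themselves. For same-numbered arrays they ran from -0.453 to 0.407 in INS, -0.59 to 0.466 in DEL and -0.16 to 0.495 in rWT. Of the 60 arrays, 21 correlated best with an array of their own number, and no expected count was computed. The rule bears on pairing only, and whether arrays of 1 number shared a batch was not tested. Among TCDD arrays alone the median was 0.185 for same-numbered and -0.05 for other pairs in INS, 0.05 and -0.02 in DEL, and 0.208 and -0.06 in rWT. With the replicate number within line as a block, PERK branch and pathway genes called in INS were 2 each, and the members called remained 0 in INS, 1 in DEL and 3 in rWT by count. With the number also removed from the deviations, a choice made after seeing the data, the median r of the 6 pairs among Hspa5, Pdia4, Hsp90b1 and Creld2 was 0.80, against 0.82. The cause of these changes was not tested, apart from the shift of all features that median centring itself makes. Groups of 2 to 5 arrays limit what can be seen, most of all in rWT, where 2 corn oil arrays remain once the high-Xist arrays are set aside.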
